A study of Mus musculus with 12 samples.

Results

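Circadian clock genes were followed in the livers of mice injected with exosomes. The set holds 10 of the 25540 gene symbols in the counts table, taken by name: Arntl, Clock, Npas2, Per1, Per2, Per3, Nr1d1, Dbp, Tef and Hlf. Arntl, which encodes BMAL1, stands under its older symbol. All 10 were found and all 10 passed the filter on low counts. Liver mRNA was sequenced from 12 BALB/c samples, 3 in each of 4 groups named after what an injected preparation carried. It is labelled iExos, and the series title speaks of exosomes. The loads were siCntrl and siSTAT3, where si commonly stands for small interfering RNA, and mASO Scrbl and mASO STAT3, where ASO is the usual short form of antisense oligonucleotide and Scrbl of scrambled. Every group, controls included, received iExos, and uninjected livers were not analysed here. The title names STAT3 as the target and liver fibrosis as the setting. The labels give no age, sex, dose, injury, feeding state or hour of collection, and do not say whether each sample is a separate animal, so the p-values cover only sample-to-sample spread, part or all of which may be technical.

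The clock of a liver cell is a loop of transcription. BMAL1 pairs with CLOCK or with its relative NPAS2, binds the E-box and switches on the Per and Cry genes, whose proteins then block the pair. A second loop runs through REV-ERB alpha, the product of Nr1d1, which represses Arntl at a sequence called the ROR element, where the ROR receptors activate. DBP, TEF and HLF, related PAR bZIP factors, carry the rhythm to the D-box of output genes. In liver, Arntl, Clock and Npas2 peak at a different time of day from Nr1d1, Dbp and the Per genes. In livers taken once and at an hour the labels do not give, a shift of phase and a change of level cannot be told apart.

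Promoter windows were searched for the letters of the elements named above. RefSeq windows of the build GRCm38.p6, running from 250 bases before to 50 bases after a transcript start, matched 9 of the 10 genes in 14 windows. Per2 was not matched. Both strands were searched for the E-box (CACGTG), the D-box (TTATGTAA or TTACGTAA), the ROR element (ANTAGGTCA or ANTGGGTCA) and a STAT-type site (TTCNNNGAA). The E-box stood in 3 of the 14 windows, of Per1 and Tef, and in 7.15% of all 32851 windows of the same length. The D-box stood in the Per3 window and in 1.06% of all windows, and the ROR element in 1 Arntl window and in 1.45% of all. The windows of Clock, Npas2, Nr1d1, Dbp and Hlf held no E-box, D-box or ROR element. The stretches are shown because they hold the elements named after the loop, with the element in capitals. In both Tef windows and in Per1 the E-box lay upstream of the start, and Per3 carried the D-box 2 times. The Arntl element lay just past one of its starts, at bases 29 to 37 of the transcript.
Arntl, chr7:113207529-113207557, plus strand: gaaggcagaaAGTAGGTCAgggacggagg
Per1, chr11:69098743-69098828, plus strand: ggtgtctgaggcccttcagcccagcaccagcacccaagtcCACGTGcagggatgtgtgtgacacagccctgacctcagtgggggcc
Tef, chr15:81802506-81802591, plus strand: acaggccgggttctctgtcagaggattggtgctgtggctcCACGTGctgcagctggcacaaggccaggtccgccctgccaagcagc
Tef, second start, chr15:81811236-81811321, plus strand: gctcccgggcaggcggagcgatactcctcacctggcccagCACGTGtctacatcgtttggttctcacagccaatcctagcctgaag
Per3, chr4:151044776-151044910, minus strand: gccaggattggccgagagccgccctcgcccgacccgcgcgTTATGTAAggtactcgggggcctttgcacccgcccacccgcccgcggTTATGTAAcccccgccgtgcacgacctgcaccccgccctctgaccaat
The STAT-type letters were found in the Dbp window, as TTCCGCGAA from 99 to 91 bases before the start, and in 1 of the Per1 windows, as TTCCACGAA from 210 to 202 bases before the start, against 8.30% of all windows. A match is a description of the letters and not evidence of binding, and the data hold no binding measurement.

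Libraries held 39844158 to 67791159 counts. Levels are CPM, counts scaled to a common library size, with totals adjusted by TMM, a factor for composition that ran from 1.11 to 1.27 in the controls and from 0.804 to 0.901 in the libraries labelled STAT3, and levels are compared between libraries, not between genes. Stat3 itself did not pass the test in either arm. Its log2 fold change came to −0.03 ± 0.14 (SE) with siSTAT3 (edgeR adjusted p = 0.868) and 0.05 ± 0.14 with mASO STAT3 (edgeR adjusted p = 0.792), so the named target gives no check of the labels. By library totals alone Stat3 was called lower in both arms, at −0.54 and −0.53 (edgeR adjusted p = 0.00446 and 0.00413). The libraries were liver by their markers: the summed level of 10 hepatocyte markers ran from 51680.5 to 90438 CPM in the controls and from 112402 to 152894 CPM in the libraries labelled STAT3, with 5 of 10 markers higher in the siRNA arm and 8 of 10 in the mASO arm. Markers of stellate cells and myofibroblasts summed to 961 to 2122 CPM in the controls and to 214 to 405 CPM under the STAT3 labels, with 9 of 10 lower in the siRNA arm, and 8 lower and 1 higher in the mASO arm. Those of bile duct cells summed to 541 to 1378 against 67.8 to 132 CPM, with 5 of 6 and 4 of 6 lower. Most of each sum was 1 gene, Spp1, at 502 to 1347 CPM in the controls and 53.5 to 121 CPM under the STAT3 labels. The median log2 fold change of the 6 markers was −1.67 in the siRNA arm and −1.36 in the mASO arm. Macrophage markers (319 to 702 against 242 to 330 CPM) were lower for 4 of 7 in each arm, with 1 higher in the mASO arm, neutrophil markers (34.9 to 99.3 against 13.8 to 43.1 CPM) for 4 of 5 and 5 of 5, and endothelial markers (137 to 172 against 98.5 to 177 CPM) for 4 of 7 and 3 of 7, with 1 higher in the mASO arm. Lymphoid markers (2.89 to 4.63 against 3.90 to 7.68 CPM) were higher for 1 of 7 and 3 of 7, with 1 lower in the siRNA arm. These counts stand beside 22.4% of all tested genes called higher and 23.4% lower for siSTAT3, with 21.3% higher and 22.5% lower for mASO STAT3, and those of the shorter lists rest on few genes. No marker was at 0 in any group. These marker levels moved with every difference between the STAT3 and control groups below, and their part in those differences was not tested. In bulk tissue, fewer cells of a type and less RNA per cell cannot be told apart.

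In livers labelled siSTAT3 the positive limb of the clock was low and most of its output was high. Arntl, Clock and Npas2 fell, Per2, Per3, Dbp, Tef and Hlf rose, and Per1 and Nr1d1 passed in neither direction. By edgeR's quasi-likelihood test at an adjusted p under 0.05, 5 of the 10 genes were higher and 3 lower. Of all 15720 tested genes 45.7% were called in that comparison, 22.4% higher and 23.4% lower. Against mASO Scrbl, livers labelled mASO STAT3 again had 5 higher and 3 lower, beside 43.8% of all tested genes, 21.3% higher and 22.5% lower. Over the 10 genes the log2 fold changes ran from −4.06 to 2.55 in the siRNA arm and from −3.13 to 1.93 in the mASO arm. The median over the 10 genes was 0.47 and 0.24, beside −0.04 and −0.05 over all tested genes, and says little of a set that moved both ways. The 3 libraries of one group did not overlap those of the other for 8 of the 10 genes in the siRNA arm, against 53.0% of all tested genes, and for 7 of 10 in the mASO arm, against 56.8%. Scaling by library totals alone moved the median of all tested genes to −0.53 and −0.63. Under that scaling Arntl, Clock, Npas2, Per2, Per3, Dbp and Tef kept direction and call in both arms, while Hlf turned to −0.10 and −0.22 and Nr1d1 stood at −0.47 and −1.05.

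**Figure D1:**
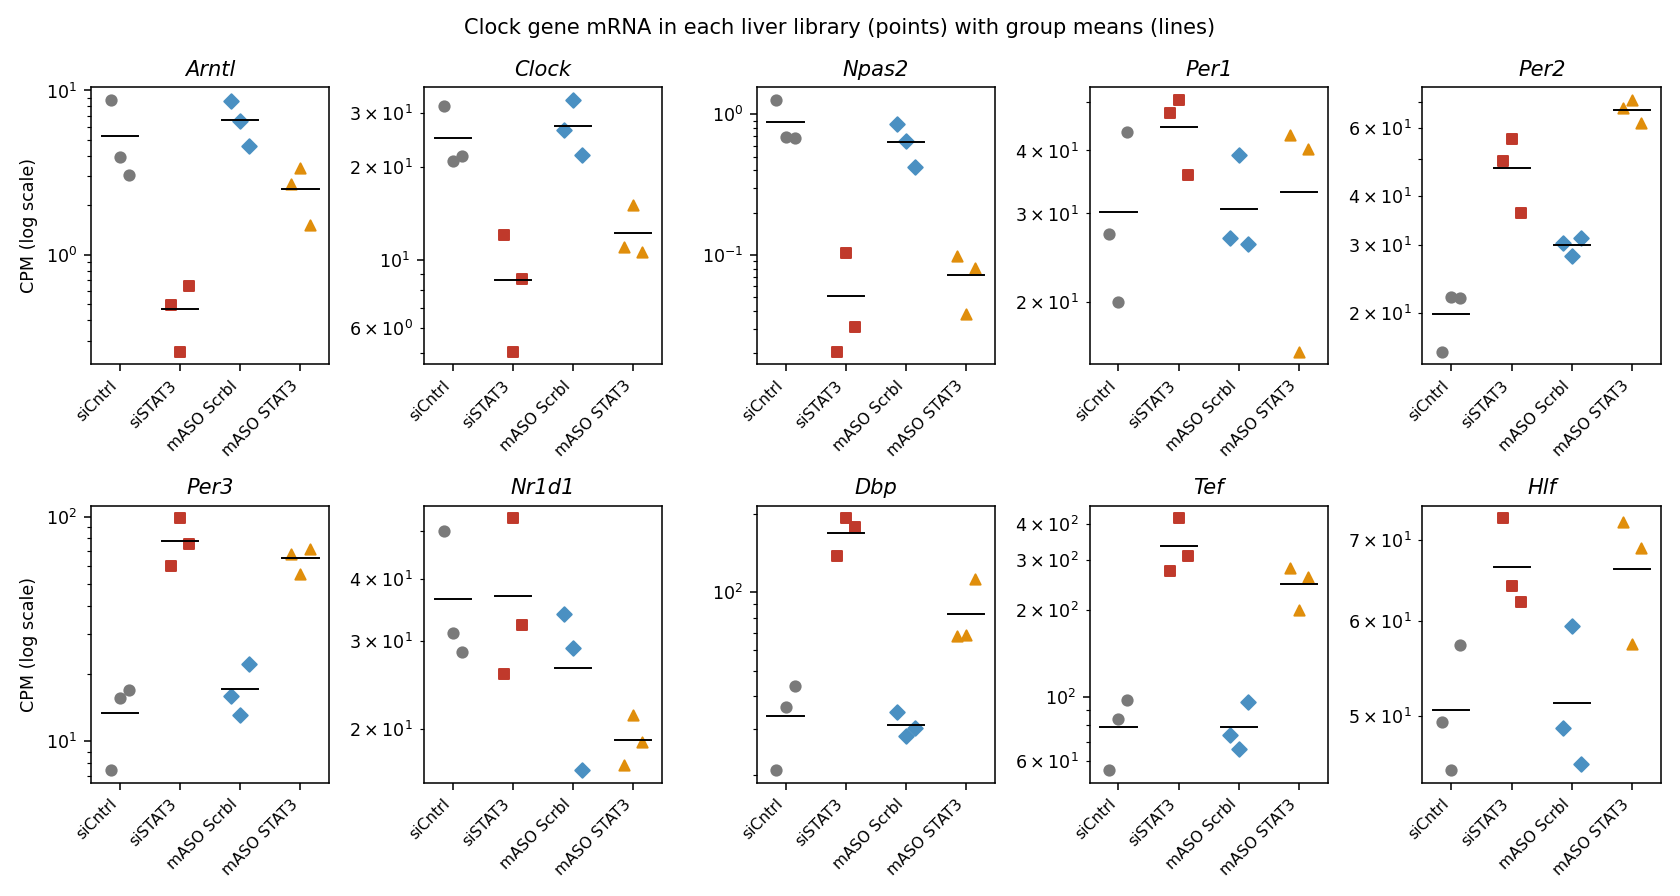
Level of each of the 10 clock genes (CPM, log axis) in each of the 12 liver libraries, by group; points are libraries and the line is the mean of the group. Arntl, Clock and Npas2 lie lower in both STAT3-labelled groups than in the controls, Per2, Per3, Dbp and Tef lie higher, and for Per1 and Nr1d1 the groups overlap within each arm.

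Arntl, the gene of the obligate partner in the activating pair, was lowest in siSTAT3 and next lowest in mASO STAT3. It stood at 8.77, 3.92 and 3.07 CPM in siCntrl and at 0.493, 0.257 and 0.645 CPM in siSTAT3, where the libraries held 24, 10 and 21 counts. It stood at 8.67, 6.48 and 4.58 CPM in mASO Scrbl and at 2.71, 3.37 and 1.51 CPM in mASO STAT3. Within each arm no STAT3-labelled library reached its controls, although siCntrl 3 lay below 1 of the mASO STAT3 libraries. Its log2 fold change was −3.50 ± 0.49 (SE) with siSTAT3 (edgeR adjusted p = 7.67e-05), which leaves 8.81% of the siCntrl level, and −1.38 ± 0.43 with mASO STAT3 (edgeR adjusted p = 0.0179), which leaves 38.5%. The mASO call rested on single libraries. Without mASO STAT3 3 the edgeR adjusted p was 0.0752 at a log2 fold change of −1.12, and without mASO Scrbl 1 it was 0.0716 at −1.13, with a range of 0.00178 to 0.0752 over the 14 alternatives.

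Clock and Npas2 encode alternative partners of BMAL1. Clock stood at 31.7, 21.0 and 21.8 CPM in siCntrl and 12.1, 5.04 and 8.66 CPM in siSTAT3, and at 26.4, 33.1 and 21.9 CPM in mASO Scrbl and 11.03, 15.1 and 10.6 CPM in mASO STAT3. Every STAT3-labelled library lay below all 6 controls. Its log2 fold change was −1.52 ± 0.28 with siSTAT3 (edgeR adjusted p = 7.73e-04) and −1.15 ± 0.28 with mASO STAT3 (edgeR adjusted p = 0.00492). Npas2 was close to the limit of counting under the STAT3 labels. The libraries held 95, 48 and 47 counts of it in siCntrl and 1, 4 and 1 in siSTAT3, and 70, 53 and 34 in mASO Scrbl and 4, 2 and 4 in mASO STAT3. In CPM the controls ran from 0.421 to 1.27 and the STAT3-labelled libraries from 0.0205 to 0.103, without overlap. The log2 fold change of Npas2 was −4.06 ± 0.65 with siSTAT3 (edgeR adjusted p = 2.10e-04) and −3.13 ± 0.61 with mASO STAT3 (edgeR adjusted p = 9.41e-04), sizes that depend on the handful of counts in the lower groups.

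Of the Per genes, whose products repress the activating pair, Per3 and Per2 were higher and Per1 was not called. Per3 stood at 7.42, 15.6 and 16.9 CPM in siCntrl and 59.97, 98.1 and 75.6 CPM in siSTAT3, and at 15.95, 13.1 and 22.1 CPM in mASO Scrbl and 68.4, 55.5 and 71.3 CPM in mASO STAT3. The lowest STAT3-labelled library was above the highest control by a wide margin. The log2 fold change of Per3 was 2.55 ± 0.30 with siSTAT3 (5.85-fold, edgeR adjusted p = 2.45e-05) and 1.93 ± 0.29 with mASO STAT3 (3.82-fold, edgeR adjusted p = 1.81e-04). Per2 stood at 15.9, 22.1 and 21.8 CPM in siCntrl and 49.2, 56.3 and 36.2 CPM in siSTAT3, and at 30.4, 28.1 and 31.3 CPM in mASO Scrbl and 67.4, 70.9 and 61.9 CPM in mASO STAT3. For Per2 all 4 groups were apart, in the order siCntrl, mASO Scrbl, siSTAT3 and mASO STAT3. Its log2 fold change was 1.25 ± 0.17 with siSTAT3 (edgeR adjusted p = 5.27e-05) and 1.16 ± 0.17 with mASO STAT3 (edgeR adjusted p = 9.44e-05). Per1, which in many tissues also answers acutely to hormones and other signals, ran from 20.03 to 43.5 CPM in siCntrl and from 35.7 to 50.4 CPM in siSTAT3. In the mASO arm its range was 26.04 to 39.1 CPM with the scrambled load and 15.95 to 42.9 CPM with the STAT3 load. These ranges overlapped in both arms. For Per1 the siRNA arm gave 0.56 ± 0.36 on the log2 scale, with a 95% interval of −0.22 to 1.33 and an edgeR adjusted p of 0.221. The mASO arm gave 0.11 ± 0.35, with an interval of −0.67 to 0.88 and an edgeR adjusted p of 0.831. A change of the size seen for Per2 lay within the first interval and outside the second.

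Nr1d1, the gene of the repressor that acts on Arntl, was not called in either arm. It stood at 49.9, 31.2 and 28.5 CPM in siCntrl and 25.8, 52.9 and 32.3 CPM in siSTAT3. In the mASO arm it stood at 34.1, 29.1 and 16.5 CPM in mASO Scrbl and 16.9, 21.3 and 18.8 CPM in mASO STAT3, with mASO Scrbl 3 below all 3 of them. With siSTAT3 the log2 fold change of Nr1d1 was 0.02 ± 0.30 (−0.64 to 0.68 at 95%, edgeR adjusted p = 0.967). With mASO STAT3 it was −0.48 ± 0.31 (−1.15 to 0.18, edgeR adjusted p = 0.224). A rise as large as that of Dbp lay outside both intervals. The sign in the siRNA arm changed with the scaling and with single libraries, and by library totals the fall in the mASO arm was called, at −1.05 (edgeR adjusted p = 0.00911, and 0.00911 to 0.560 over the 14 alternatives).

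The PAR bZIP genes split into a pair that rose strongly and 1 gene that rose little. Dbp, classically the most rhythmic of them in liver, stood at 20.8, 36.4 and 43.9 CPM in siCntrl and 137, 192 and 178 CPM in siSTAT3, and at 34.9, 28.2 and 30.3 CPM in mASO Scrbl and 68.1, 68.4 and 112 CPM in mASO STAT3. The 6 controls lay below all 6 STAT3-labelled libraries, and the siSTAT3 libraries lay above those of mASO STAT3. The log2 fold change of Dbp was 2.33 ± 0.27 with siSTAT3 (5.01-fold, edgeR adjusted p = 1.80e-05) and 1.41 ± 0.26 with mASO STAT3 (2.66-fold, edgeR adjusted p = 7.41e-04). Tef stood at 55.7, 83.7 and 97.5 CPM in siCntrl and 274, 417 and 309 CPM in siSTAT3, and at 74.1, 66.0 and 96.5 CPM in mASO Scrbl and 279.9, 200.2 and 260.3 CPM in mASO STAT3. Controls and STAT3-labelled libraries were again apart. Tef had log2 fold changes of 2.08 ± 0.23 with siSTAT3 (edgeR adjusted p = 1.09e-05) and 1.65 ± 0.23 with mASO STAT3 (edgeR adjusted p = 6.79e-05). Hlf ran from 45.1 to 57.3 CPM in siCntrl and from 62.2 to 72.9 CPM in siSTAT3, without overlap. Its range of 57.4 to 72.5 CPM in mASO STAT3 overlapped that of 45.6 to 59.4 CPM in mASO Scrbl. Its log2 fold change was 0.39 ± 0.14 with siSTAT3 (edgeR adjusted p = 0.0365) and 0.37 ± 0.14 with mASO STAT3 (edgeR adjusted p = 0.0486). Both calls of Hlf were at the threshold. The siRNA call ended without siCntrl 1 (log2 fold change 0.37, edgeR adjusted p = 0.0869), siCntrl 2 (0.31, 0.140) or siSTAT3 1 (0.32, 0.131), with the replicate block (0.0572), over only the libraries compared (0.0554), without a filter (0.0798) and by library totals. The mASO call ended without mASO STAT3 1 (0.30, 0.168) or 3 (0.34, 0.1296), without mASO Scrbl 1 (0.33, 0.139) or 3 (0.29, 0.171), with the block (0.0772), with no filter (0.0911) and by library totals. Over the 14 alternatives the adjusted p ran from 0.0224 to 0.554 and from 0.0227 to 0.171.

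**Figure D2:**
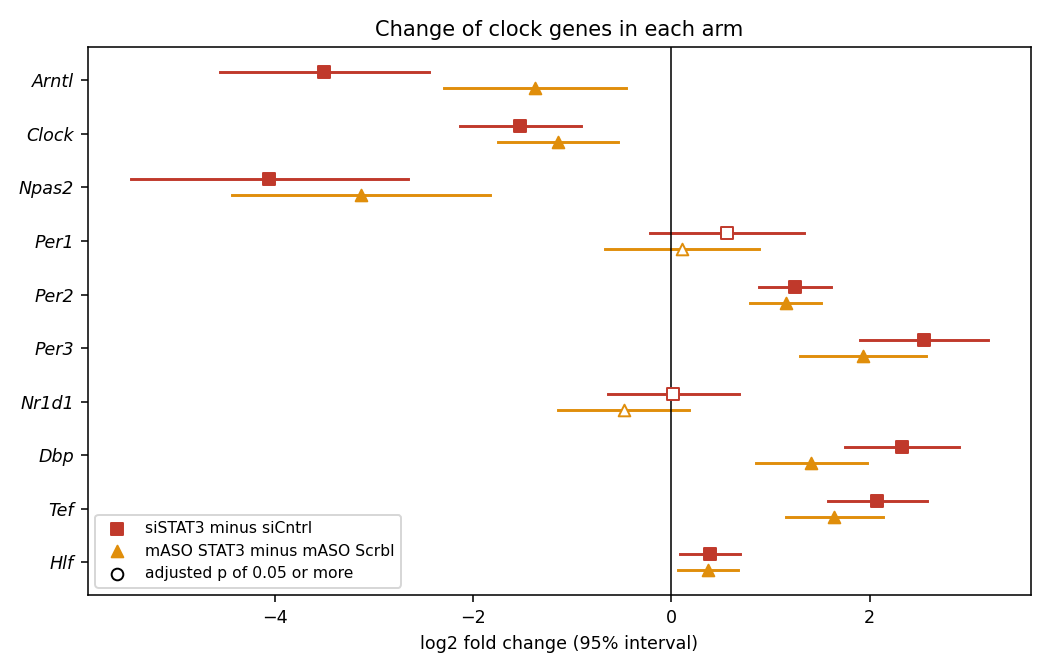
log2 fold change of each clock gene in the siRNA arm (squares) and the mASO arm (triangles) with its 95% interval; open symbols did not pass edgeR's test. Arntl, Clock and Npas2 lie below 0, Per2, Per3, Dbp and Tef above 1, Hlf near 0.4, and the intervals of Per1 and Nr1d1 include 0 in both arms.

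Ratios of counts within a library do not depend on scaling or depth, and show the opposing movement directly. Their size also carries the lengths of the transcripts, so only differences between libraries are read. There were 2.38, 9.28 and 14.3 Dbp counts per Arntl count in siCntrl and 278, 745 and 276 in siSTAT3. In the mASO arm there were 4.02, 4.36 and 6.61 in mASO Scrbl and 25.2, 20.3 and 74.4 in mASO STAT3. The lowest STAT3-labelled library, mASO STAT3 2, was thus above the highest control, siCntrl 3. Per3 per Clock ran from 0.235 to 1.01 in the 6 controls and from 3.67 to 19.5 in the 6 STAT3-labelled libraries. Among genes that usually peak near each other the ratios changed as well: Dbp per Nr1d1 ran from 0.418 to 1.84 in the controls and from 3.21 to 5.98 under the STAT3 labels. Tef per Hlf ran from 1.11 to 2.11 and from 3.49 to 6.50. The ranges of these ratios did not overlap, while those of others did. Per2 per Per1 ran from 0.502 to 1.20 in the controls and from 1.01 to 4.44 under the STAT3 labels. Nr1d1 per Arntl ran from 3.60 to 9.26 in the controls and from 50.1 to 205.7 in siSTAT3, but from 6.24 to 12.4 in mASO STAT3. The ratios were picked after the levels were seen and are given with no test.

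**Figure D3:**
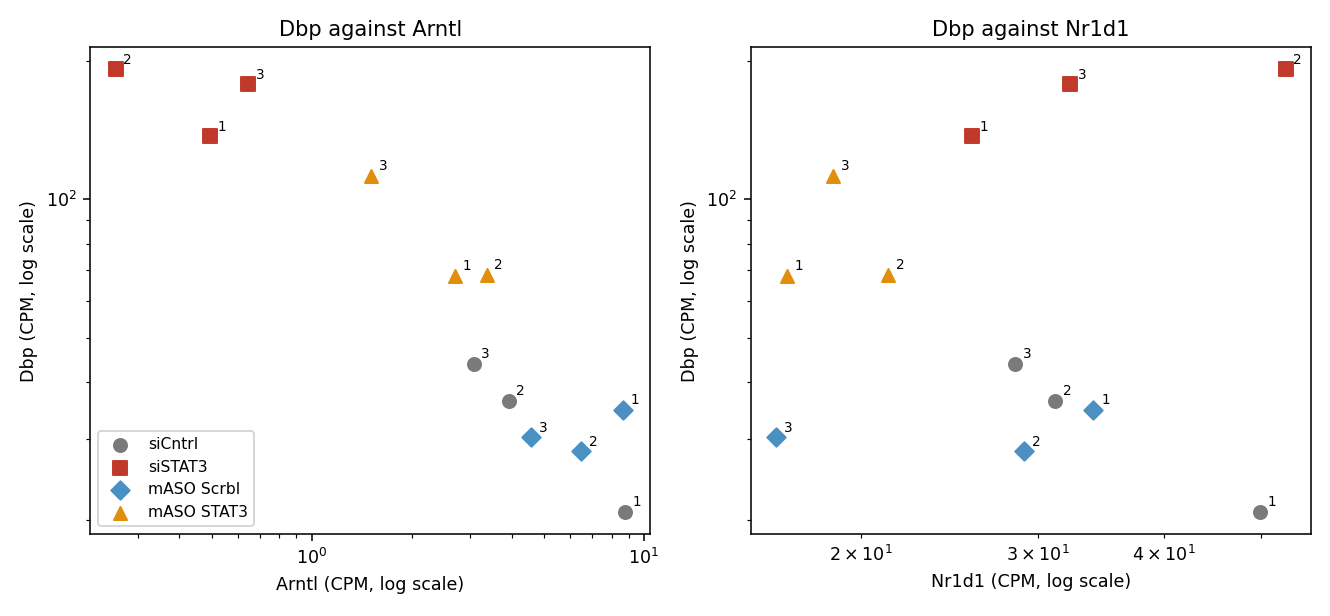
Dbp against Arntl (left) and against Nr1d1 (right) in CPM on log axes, 1 point per library with its replicate number. On the left the siSTAT3 libraries sit at the upper left, at 0.257 to 0.645 CPM of Arntl, the controls at the lower right and mASO STAT3 between them; on the right Dbp separates the STAT3-labelled libraries from the controls, while Nr1d1 overlaps between the groups of each arm.

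The 2 loads were then compared with each other. For the difference between the changes of the arms, 0 of the 10 clock genes passed edgeR's test, against 0.00636% of all tested genes. DESeq2 and voom called 0 as well. At an unadjusted p under 0.05 there were 2 of the 10. The share of all tested genes at an unadjusted p was not taken, so such counts here have no background beside them. Those at an unadjusted p under 0.05 were Arntl, 2.13 ± 0.63 on the log2 scale (95% interval 0.76 to 3.49, edgeR adjusted p = 0.607), and Dbp, −0.91 ± 0.36 (−1.69 to −0.13, edgeR adjusted p = 0.656). Npas2 differed by 0.93 ± 0.91 (−1.02 to 2.89, edgeR adjusted p = 0.837). Between the STAT3-labelled groups themselves 0 of 10 passed edgeR's test, where 0% of all tested genes were called, and 0 passed voom. At an unadjusted p under 0.05 there were 4 of the 10. Arntl was 5.46-fold higher in mASO STAT3 than in siSTAT3, 2.45 ± 0.48 on the log2 scale (edgeR adjusted p = 0.216), and DESeq2 called it (adjusted p = 2.63e-04). Dbp was lower in mASO STAT3, at −1.03 ± 0.26 (edgeR adjusted p = 0.391), and DESeq2 called it too (adjusted p = 0.0366). Nr1d1 was at −0.96 ± 0.31 (edgeR adjusted p = 0.606) and Per2 at 0.50 ± 0.17 (edgeR adjusted p = 0.624). The libraries of mASO STAT3 and siSTAT3 did not overlap for 4 of the 10 genes, against 11.2% of all tested genes. They were the same 4, and a low p and a lack of overlap read the same values. Between the controls 0 of 10 passed edgeR's test, against 0.0127% of all tested genes, and 0 passed DESeq2 or voom. At an unadjusted p under 0.05 there was 1. That was Per2, at 0.59 ± 0.17 (edgeR adjusted p = 0.502), the 1 clock gene whose control groups did not overlap, against 12.4% of all tested genes. The other 9 log2 differences between the controls ran from −0.46 to 0.36. The comparisons share libraries with the arms, so their values are not independent of those above.

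Within groups some of the same genes also moved against each other, and others did not. The SD of log2 CPM within groups was 0.63 for Arntl, 0.55 for Npas2 and 0.53 for Per1, and 0.17 for Hlf and 0.22 for Per2. Arntl deviated from its group mean in the direction opposite to Per3 and to Tef in 11 of the 12 libraries each, and opposite to Dbp in 9. Clock did so against Per3 and Tef in 11 libraries each. Per3 and Tef deviated the same way in 12 of 12, and Arntl and Clock in 10. Other pairs were less regular. Arntl deviated opposite to Per1 and to Per2 in 7 libraries each, the same way as Nr1d1 in 8 and as Npas2 in 7. Clock deviated opposite to Npas2 in 7. The library siCntrl 1 had the highest Arntl, Clock, Npas2 and Nr1d1 of its group and the lowest Per2, Per3, Dbp and Tef, with Arntl 0.89 above and Per3 0.75 below the group mean on the log2 scale. The library siSTAT3 2 had the lowest Arntl and Clock of its group and the highest Per2, Per3, Dbp and Tef, but like siCntrl 1 it also had the highest Npas2, on 4 counts, and the highest Nr1d1. Deviations in a group of 3 sum to 0, so the 12 libraries are not 12 independent readings, and these counts are a description.

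**Figure D4:**
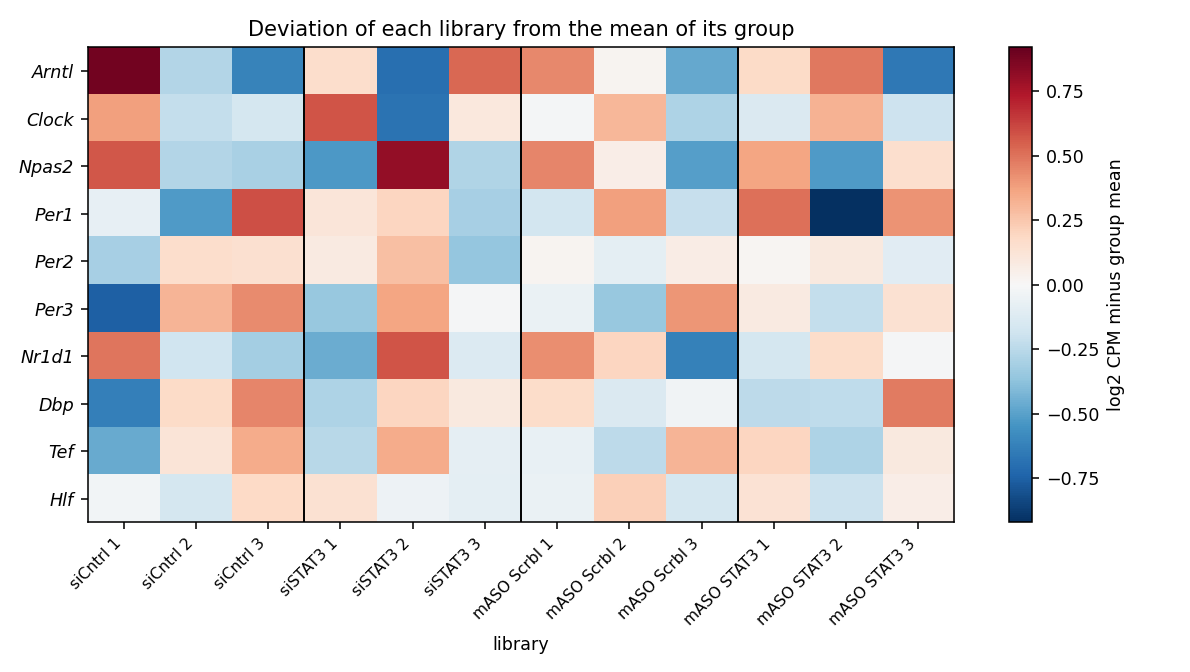
Deviation of each library from the mean of its group, in log2 CPM, for the 10 clock genes (rows) and 12 libraries (columns, divided by group). In siCntrl 1 the upper rows Arntl, Clock and Npas2 are above the mean while Per3, Dbp and Tef are below it, and in 11 of 12 libraries Arntl and Tef have opposite signs.

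Other genes of the clock were taken from a list of 20, of which 19 stood in the table and 18 were tested. In the siRNA arm 6 were higher and 2 lower, 44.4% of those tested, and in the mASO arm 7 were higher and 5 lower, 66.7%, beside 45.7% and 43.8% of all tested genes. The median log2 fold change was −0.01 in both arms. Scaled by library totals the counts were 3 higher and 10 lower in each arm.

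Both Cry genes, partners of the Per proteins in repression, were higher. Cry2 had log2 fold changes of 1.44 ± 0.17 and 0.95 ± 0.16 (edgeR adjusted p = 1.34e-05 and 3.91e-04), and Cry1, added to the named genes after its values were seen, of 1.11 ± 0.27 and 0.91 ± 0.26 (edgeR adjusted p = 0.00405 and 0.0125). By library totals Cry1 was not called in either arm (0.0591 and 0.294, and 0.63 and 0.33 on the log2 scale). Nr1d2, the paralog of Nr1d1, did rise, from 47.0 to 52.8 CPM in siCntrl to 94.1 to 113 CPM in siSTAT3 (1.08 ± 0.15, edgeR adjusted p = 7.00e-05), and by 0.57 ± 0.15 with mASO STAT3 (edgeR adjusted p = 0.00760), where its value by library totals was −0.02. Nfil3, a repressor that competes with the PAR bZIP factors at the D-box, was at 0.76 ± 0.26 with siSTAT3 (edgeR adjusted p = 0.0253) and 1.34 ± 0.26 with mASO STAT3 (edgeR adjusted p = 8.60e-04). The siRNA call of Nfil3 ended without siCntrl 1, 2 or 3 or siSTAT3 2 or 3 (log2 fold change 0.54 to 0.78, adjusted p from 0.0581 to 0.118). It held without siSTAT3 1 and ended by library totals. Arntl2, a paralog of Arntl, fell with it, from 0.819 to 1.90 CPM in siCntrl to 0.0307 to 0.257 CPM in siSTAT3 (−2.70 ± 0.58, edgeR adjusted p = 0.00196). In the mASO arm Arntl2 ran from 0.842 to 1.41 CPM in mASO Scrbl and from 0.0984 to 0.171 CPM in mASO STAT3. The log2 fold change there was −2.98 ± 0.59 (edgeR adjusted p = 0.00111). Under the STAT3 labels its levels rest on few counts, so both sizes are imprecise. Timeless, a replication fork gene named for a fly clock gene and also picked after its values were seen, was lower in both arms, at −1.05 ± 0.36 and −1.33 ± 0.36 (edgeR adjusted p = 0.0297 and 0.00892). Its siRNA call ended without siCntrl 2 (−0.68, adjusted p = 0.148), siSTAT3 1 (−0.87, 0.106) or siSTAT3 3 (−1.09, 0.0622), with voom (−1.02, 0.0636) and with no filter (−1.08, 0.0565), and without mASO Scrbl 3 the mASO value was −0.88 (0.0444). Csnk1d, Csnk1e and Btrc, whose products mark or degrade PER and CRY proteins, passed in neither arm. Others of that kind, Fbxw11 and Fbxl21, picked after their values were seen, passed in the mASO arm, at −0.59 ± 0.18 and 0.95 ± 0.32 (edgeR adjusted p = 0.0193 and 0.0266), and not in the siRNA arm (edgeR adjusted p = 0.0888 and 0.0616). Rorb had no count. Rora, picked after its values were seen, was at −0.29 ± 0.17 with siSTAT3 (edgeR adjusted p = 0.187). With mASO STAT3 Rora was lower, at −0.56 ± 0.17 (edgeR adjusted p = 0.0166).

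Rhythmic liver genes downstream of the clock or of the PAR bZIP factors were mostly higher. Of 15 listed, 14 were tested and 12 were higher and 0 lower in each arm, 85.7% of those tested. Beside them stand 45.7% and 43.8% of all tested genes called, with 22.4% and 21.3% called higher. The list was chosen with earlier results of these data known, so its share is a description and not a test. The median log2 fold change was 2.28 for siSTAT3 and 2.52 in the mASO arm. Several of the genes are also hepatocyte genes of drug and bile acid metabolism, so the list moved with the hepatocyte markers above, whose part was not tested. Cyp7a1 encodes the enzyme that limits the rate of bile acid synthesis and is a target of DBP. It rose from 0.107 to 0.575 CPM in siCntrl to 354 to 577 CPM in siSTAT3, and from 0.133 to 0.557 CPM in mASO Scrbl to 165 to 375 CPM in mASO STAT3 (edgeR adjusted p = 6.43e-07 and 1.11e-06). The electron donor of the P450 enzymes, Por, had log2 fold changes of 1.87 ± 0.18 and 2.04 ± 0.18 (edgeR adjusted p = 2.76e-06 and 1.28e-06). The glycogen synthase gene Gys2 was at 2.63 ± 0.26 and 2.75 ± 0.26, and Cyp2b10, a P450 under the receptor CAR, at 3.76 ± 0.33 and 3.27 ± 0.32 (edgeR adjusted p up to 5.34e-06 for these). Usp2, a deubiquitinase gene with an E-box driven rhythm that was picked after its values were seen, was at 3.40 ± 0.40 and 2.69 ± 0.38 (edgeR adjusted p = 3.30e-05 and 1.56e-04). Lonrf3 passed in neither arm, at −0.35 ± 0.36 and 0.16 ± 0.35 (edgeR adjusted p = 0.448 and 0.735). Those that passed in 1 arm were Wee1, a cell cycle kinase gene, and Ccrn4l, the deadenylase gene now called Noct. Wee1 was at 1.65 ± 0.49 with siSTAT3 (edgeR adjusted p = 0.0158) and −0.35 ± 0.48 with mASO STAT3 (edgeR adjusted p = 0.584). Its siRNA call ended without siCntrl 1 (1.51, 0.0609), siCntrl 3 (1.35, 0.0581), siSTAT3 1 (1.49, 0.0511) or siSTAT3 3 (1.28, 0.0695), by library totals (1.13, 0.0752) and with no filter (1.62, 0.0606). Ccrn4l was at 0.40 ± 0.36 (edgeR adjusted p = 0.383) and 1.83 ± 0.37 (edgeR adjusted p = 0.00173). The difference between the arms passed for neither, at −2.0003 ± 0.68 for Wee1 (edgeR adjusted p = 0.640) and 1.43 ± 0.51 for Ccrn4l (edgeR adjusted p = 0.643).

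Genes that respond to the cues which set the liver clock, such as glucocorticoids, temperature and feeding, went both ways. Of 14 tested, 2 were higher and 5 lower in the siRNA arm and 4 higher and 3 lower in the mASO arm, 50% of those tested in each, close to the 45.7% and 43.8% of all tested genes, with medians of −0.46 and −0.19. By library totals 1 was higher and 8 lower in the siRNA arm, and 3 were higher and 7 lower in the mASO arm. Of all 15720 tested genes that scaling called 1655 higher and 7266 lower for siSTAT3, and 1525 higher and 7939 lower for mASO STAT3. Rbm3 and Cirbp both encode cold-inducible RNA-binding proteins, and they moved apart. Rbm3 fell from 99.2 to 137 CPM in siCntrl to 29.3 to 35.4 CPM in siSTAT3 (−1.90 ± 0.14, edgeR adjusted p = 3.16e-07) and from 118 to 139.5 CPM in mASO Scrbl to 35.3 to 39.1 CPM in mASO STAT3 (−1.78 ± 0.14, edgeR adjusted p = 5.27e-07). Cirbp, chosen after its values were seen, was at 0.86 ± 0.26 and 0.79 ± 0.26 (edgeR adjusted p = 0.0160 and 0.0257). The calls of Cirbp ended by library totals (0.36 and 0.21, adjusted p = 0.257 and 0.499). The siRNA call also ended without siCntrl 1 (0.81, 0.0508) or siSTAT3 2 (0.36, 0.0714), and the mASO call without mASO STAT3 1 (0.65, 0.0980) or any of mASO Scrbl 1, 2 and 3 (0.75 to 0.83, 0.0510 to 0.0761). The chaperone gene Hsp90aa1 fell by 1.51 ± 0.21 and 1.13 ± 0.21 on the log2 scale (edgeR adjusted p = 6.77e-05 and 6.52e-04). The cAMP-responsive gene Crem, whose product modulates transcription by cAMP, rose by 1.26 ± 0.19 and 1.24 ± 0.19 (edgeR adjusted p = 1.62e-04 and 1.76e-04). Fkbp5 and Tsc22d3 are both induced by glucocorticoids. Fkbp5 passed in neither arm. Sgk1 and Klf9, of the same list, were picked after their values were seen. Sgk1 was lower with siSTAT3, at −1.40 ± 0.38 (edgeR adjusted p = 0.00988). With mASO STAT3 it was at −0.39 ± 0.37 (edgeR adjusted p = 0.417). Klf9 passed in neither arm (edgeR adjusted p = 0.891 and 0.267). Tsc22d3 was at 0.56 ± 0.31 with siSTAT3 (edgeR adjusted p = 0.168; 1.05 and 0.00585 without siCntrl 3) and at 1.87 ± 0.32 with mASO STAT3 (edgeR adjusted p = 5.52e-04).

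**Figure D5:**
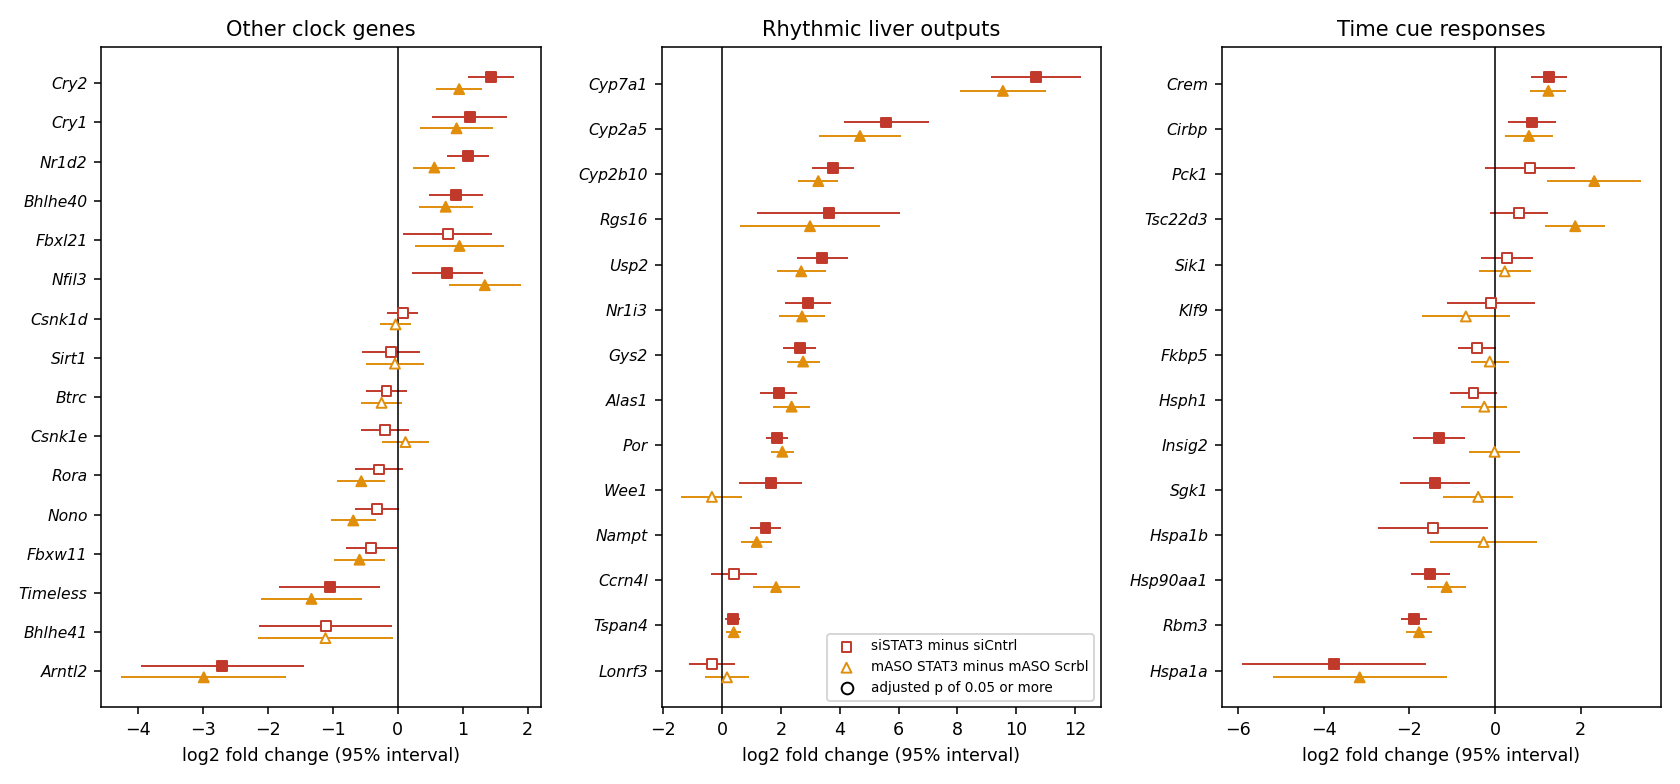
log2 fold change with its 95% interval for the tested members of 3 lists, other clock genes (left), rhythmic liver outputs (middle) and genes that respond to time cues (right), in the siRNA arm (squares) and the mASO arm (triangles); open symbols did not pass edgeR's test. Of the outputs 12 of 14 lie above 0 and passed in each arm, Cyp7a1 farthest, while the other lists spread to both sides of 0, with Arntl2 lowest among the clock genes; the panel of other clock genes shows 16 of the 18 tested.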

How the data were processed

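TRIzol was used for RNA and a stranded Illumina kit for mRNA libraries, as the labels' protocols state. The authors deposited unnormalized read counts by gene symbol and a normalized signal that by its values is the count divided by 1 factor per library (to within 0.01 count for 100% of genes), used only for that check. Per the submitters' processing notes, tools included TopHat and Cufflinks, versions unstated. Not given in the sources used here: genome build, annotation, counter and whether counting used strand, on which the values of antisense and overlapping genes depend.

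edgeR 4.0.16 in R 4.3.3 was fitted once to all 12 libraries, 1 mean per group, with TMM scaling and a filter by group (minimum count 10, minimum total 15), which kept 15720 of 25540 genes. The robust quasi-likelihood F test had 8 residual degrees of freedom and Benjamini-Hochberg adjustment over all tested genes at 0.05. SE is the log2 fold change divided by the square root of F, and intervals are 95%. Precision at low levels is set by counts, printed for Arntl and Npas2. Alternatives used DESeq2 (1.42.0), limma voom (3.58.1), other scalings and filters, a replicate block, the compared libraries alone, and each library left out. The procedure was tested on simulated counts in which few genes changed, evenly in both directions. Far more genes were called here, so that simulation does not test the scaling. Replicates differed by far more than sampling noise. Same-numbered libraries of the groups compared correlated at −0.238 to 0.187. No differently numbered libraries were set beside them, so this cannot settle whether the numbers pair samples. The main fit used no pairing.

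The genes and lists were chosen with earlier results of these data known. All 10 clock genes are given. From each list the 4 smallest p per arm and members against their list could be named, and others are marked. Exceptions without a mark are Csnk1d, Csnk1e, Btrc and Fkbp5, which passed in neither arm, and Rorb, which was not tested. Ciart, Adgre1 and Jchain were not found. Of the other clock genes tested, 2 enter the counts but are not reported here.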

Additional observations from a re-analysis of the deposited data

How the results depend on the processing

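Arntl in the siRNA arm and Clock, Npas2, Per2, Per3, Dbp and Tef in both arms kept direction and call in every alternative that tested them, and Npas2 was not tested with the filter of 1 CPM in 3 libraries. The counts of clock genes called in the arms stayed within 1.5 times, except that between the STAT3-labelled groups DESeq2's test called 1 higher and 1 lower where edgeR called 0. The replicate block left 4 higher and 3 lower in each arm, losing Hlf, and called 0 genes higher in the difference of the arms. Leaving out 1 library left 4 to 5 higher in each arm, and 3 to 3 lower in the siRNA and 2 to 3 in the mASO arm. Over all genes, library totals gave 1655 higher and 7266 lower in the siRNA arm, 1525 and 7939 in the mASO arm, and 3 higher between the controls. DESeq2's test gave 44 higher and 17 lower for the difference of the arms, 24 and 55 between the controls, and 59 and 19 between the STAT3-labelled groups. No filter gave 2 and 1, 2 and 5, and 5 and 1, and the stricter filter 2 higher for the difference. Leaving out 1 library gave 0 to 8 higher and 0 to 3 lower for the difference, 0 to 4 and 0 to 9 between the controls, and 0 to 5 and 0 to 2 between the STAT3-labelled groups. The cause of these shifts was not tested.

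The signs that turned belong to values edgeR did not call with TMM, apart from those of Hlf and Nr1d2. Library totals gave, in the siRNA arm, Nr1d1 −0.47, Hlf −0.10 and Ccrn4l −0.055, in the mASO arm Per1 −0.50, Hlf −0.22, Stat3 −0.53 and Nr1d2 −0.024, between the controls Tef 0.10, and between the STAT3-labelled groups Hlf 0.017. With voom Nr1d1 was at −0.0099 in the siRNA arm, Per1 at −0.010 in the mASO arm and Tef at 0.017 between the controls. With no filter Nr1d1 was at −0.021 in the siRNA arm and Hlf at 0.011 between the STAT3-labelled groups. Between the controls Per1 and Hlf were at −0.0023 and −0.0014 with DESeq2's size factors, −0.0024 and −0.0014 with its test and −7.2e-04 and −8.4e-06 over the compared libraries alone, and Tef at 0.0099 with the replicate block. With 1 library left out, Nr1d1 ran from −0.33 to 0.31 and Stat3 from −0.12 to 0.082 in the siRNA arm, and Per1 from −0.13 to 0.44 and Stat3 from −0.042 to 0.15 in the mASO arm. Between the controls Per1 ran from −0.21 to 0.36, Tef from −0.20 to 0.16, Hlf from −0.098 to 0.099, Dbp from −0.36 to 0.10 and Clock from −0.035 to 0.35. For the difference of the arms Per2 ran from −0.25 to 0.053 and Hlf from −0.10 to 0.094, and between the STAT3-labelled groups Hlf from −0.073 to 0.089.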

Other observations

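Within groups, the 5 genes whose pattern was most like that of Arntl, and the 5 most like that of Dbp, held none of the other clock genes described. Likeness was Pearson's r over the 12 libraries of log2 CPM with the mean of each group removed, among 12412 genes with a mean of at least 1 CPM. For Arntl the 5 genes were Wdfy2 (r = 0.96), Traf3 (0.95), Nek4 (0.94), Sh3gl1 (0.92) and Trip4 (0.92). Clock had r = 0.73 with Arntl and stood at rank 358, while Tef, at r = −0.83, stood at rank 12355. For Dbp they were Dclk3 (0.94), Rbm47 (0.94), 0610040B10Rik (0.94), Cux2 (0.90) and Gne (0.90). Per3 stood at rank 45 for Dbp with r = 0.78, Tef at rank 150 with r = 0.69, and Nr1d1 at rank 7642 with r = −0.14. Depth differed within groups, for example from 39844158 to 57926887 counts in siSTAT3. The ranks were taken over many genes and few libraries, and the values are descriptions with no test.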
